A study of Homo sapiens with 18 samples.

Results

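The genes described here are 46 components of nodal, activin, BMP and TGF-beta signalling, chosen by name and function from 57808 genes in the deposited table. Earlier results of these data were known when they were chosen. They comprise 13 ligands, 8 secreted antagonists, 12 receptors and decoys, 10 SMADs and nuclear partners and 3 ID genes, and all 46 were found. Their RNA and ribosome footprints were followed in the established human embryonic stem cell line MEL1, whose insulin locus carries a GFP reporter (INSGFP/W), as pluripotent stem cells (hPSC), definitive endoderm (DE, the germ layer that gives rise to gut and pancreas) and stem-cell-derived beta-like cells (sBC). Total RNA was sequenced from hPSC, DE, GFP+ sBC and GFP- sBC, total footprints (Ribo) from hPSC and DE, and footprints of ribosomes pulled down with an anti-FLAG antibody (IP-Ribo) from hPSC, DE and GFP+ sBC. Each of these 9 groups held 2 libraries. Per the labels, hPSC and DE carried the genotype RPL22-FLAG, a tagged ribosomal protein, whereas the sBC for IP-Ribo received RPL22-FLAG by lentivirus and no tag is given for the sBC of the RNA libraries. Stage and tag can therefore not be told apart in any comparison of sBC with hPSC or DE. The labels name neither the factors added at each differentiation step nor separate cultures behind the 2 libraries of a group, so the tests measure the spread between these libraries, which may be technical.

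Ligands of this family bind pairs of type II and type I serine/threonine kinase receptors. Nodal, activins and TGF-beta lead to phosphorylation of SMAD2 and SMAD3, BMPs to that of SMAD1, SMAD5 and SMAD9, and both groups enter the nucleus with SMAD4. Nodal and activin signalling keeps human stem cells pluripotent and, at higher strength, drives formation of mesendoderm, and its own targets include the antagonists LEFTY1, LEFTY2 and CER1. ID1, ID2, ID3 and SMAD6 are classic targets of BMP signalling.

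Promoter windows show where such targets carry letters that SMAD complexes are known to bind, and 3 are given: CER1 as the gene with the largest rise in DE, SMAD6 as the SMAD with the largest, and ID3 as a BMP target that is followed through the sorted cells. Each window is the 250 bases before the RefSeq start of the gene in GRCh38.p14, written on the strand of the gene, with capitals marking matches on either strand to AATNCACA (known for FOXH1), CAGAC (the SMAD box) or GTCTAGAC (the palindromic form of the box, which overlaps no CAGAC as written). CER1 lies on the minus strand, window chr9:14722734-14722983. SMAD6 lies on the plus strand, window chr15:66701986-66702235. ID3 lies on the minus strand, window chr1:23559502-23559751.
CER1: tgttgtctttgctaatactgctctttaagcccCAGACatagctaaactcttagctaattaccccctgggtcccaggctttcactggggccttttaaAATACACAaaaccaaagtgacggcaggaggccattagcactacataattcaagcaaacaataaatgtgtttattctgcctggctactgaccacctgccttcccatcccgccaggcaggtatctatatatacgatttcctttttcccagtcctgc
SMAD6: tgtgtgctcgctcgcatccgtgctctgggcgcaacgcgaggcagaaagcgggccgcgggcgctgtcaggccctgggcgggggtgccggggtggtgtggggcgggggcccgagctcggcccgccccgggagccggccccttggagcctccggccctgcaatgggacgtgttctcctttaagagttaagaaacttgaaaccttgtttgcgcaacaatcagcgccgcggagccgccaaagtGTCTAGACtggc
ID3: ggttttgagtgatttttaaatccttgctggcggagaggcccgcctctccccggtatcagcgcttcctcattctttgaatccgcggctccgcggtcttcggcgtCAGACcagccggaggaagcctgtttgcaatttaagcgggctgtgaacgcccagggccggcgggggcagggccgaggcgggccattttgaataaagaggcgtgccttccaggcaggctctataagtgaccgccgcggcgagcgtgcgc
CER1 held CAGAC and AATNCACA, SMAD6 held GTCTAGAC, and ID3 held CAGAC. Among 34943 windows of this length, 2.89% held AATNCACA, 0.183% held GTCTAGAC, 38% held CAGAC and 16.4% held GGCGCC (a GC-rich element known for BMP SMADs). Of the 38 members with a window, 3 held AATNCACA (CER1, GDF3 and BMPR1B), 1 held GTCTAGAC (SMAD6), 17 held CAGAC and 15 held GGCGCC. These matches describe letters only.

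Levels are given as counts per 1000000 counts of the library (CPM), normalised within each assay, and are compared between libraries of 1 assay and not between genes, since transcript length enters each value. Library totals ran from 6.61 to 92.53 M (M, 1000000 counts). Nuclear protein-coding genes took 76.0% to 90.4% of the counts, apart from DE Ribo replicate 1 (40.5%) and the sBC IP-Ribo libraries (54.6% and 62.8%). Summed markers followed the labelled stages: the level of 4 pluripotency markers was 2428 to 2490 CPM in hPSC RNA and 43.2 to 45.8 CPM in DE RNA, that of 4 endoderm markers 11 to 11.7 and 1571 to 1612 CPM, and that of 5 beta-cell markers 12.3 to 12.9 CPM in hPSC and 5250 to 5647 CPM in GFP+ sBC. Most of the last sum was INS (4397 and 4828 CPM), and MAFA was lower in GFP+ sBC (0.287 and 1.36 CPM) than in hPSC (6.25 and 6.24 CPM). The GFP- fraction was not free of beta-cell markers (1369 to 2002 CPM), and 5 markers of other islet cells summed to 21221 to 31717 CPM in GFP+ sBC. A log2 fold change below is followed by its standard error (SE) and by an adjusted p from edgeR's quasi-likelihood test over all genes, and a gene rose or fell where that p was under 0.05. The RNA comparisons of DE with hPSC and of GFP+ sBC with either share libraries. Where all libraries of 1 group are said to lie above those of another, this describes genes that were already called. It is no further test, and the share of such genes over the whole table was not counted.

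**Figure D1:**
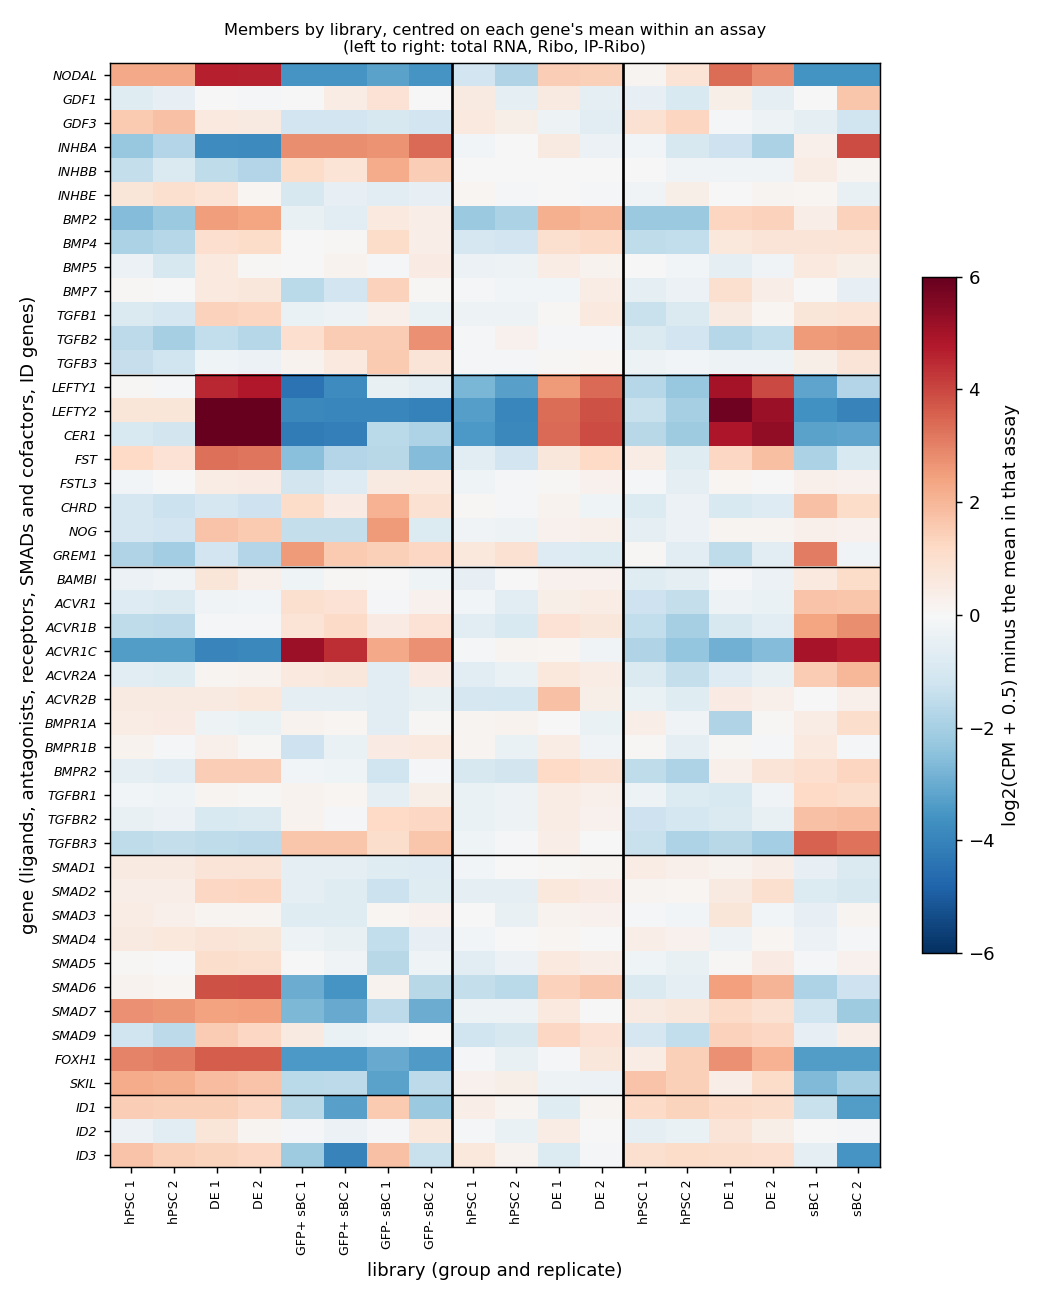
Heat map of the 46 genes (rows, grouped by role) in 18 libraries (columns), as log2(CPM + 0.5) minus the mean of that gene within its assay. NODAL, LEFTY1, LEFTY2 and CER1 stand out as high in both DE libraries of all 3 assays, and ACVR1C as high in all sBC libraries.

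From hPSC to DE, the RNA of the nodal ligand and its antagonists rose steeply. Of 45 members tested, 29 rose, or 64.4%, where 38.7% of all genes rose, and 8 fell, or 17.8%, where 36.8% of all genes fell. The median log2 fold change was 0.70 for the members and 0.01 over all genes tested. By role, 8 of 12 ligands, 7 of 8 antagonists, 6 of 12 receptors, 7 of 10 SMADs and partners and 1 of 3 ID genes rose. When the test required a log2 change beyond 1 in size (glmTreat), 16 members passed, where 25.9% of all genes passed. When the spread was estimated from all 8 RNA libraries, 19 passed, where 28.1% of all genes did.

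The largest rise was that of CER1, a secreted protein that binds nodal and BMPs. It stood at 6.30 and 5.47 CPM in hPSC and at 1495 and 1602 CPM in DE, a log2 fold change of 8.09 ± 0.09 (SE, n = 2 per group, adjusted p = 1.05e-12). LEFTY2, a diverged family member that blocks nodal at its receptor, went from 16.4 and 16.2 CPM to 1348 and 1528 CPM (6.52 ± 0.08, adjusted p = 6.14e-12). LEFTY1 stood at 12.7 and 11.6 CPM in hPSC against 291 and 351 CPM in DE (4.78 ± 0.12, adjusted p = 5.21e-07). LEFTY1 and LEFTY2 are near-identical neighbours on chromosome 1, so the split of reads between them is uncertain. NODAL itself, at 27.4 and 27.3 CPM in hPSC, reached 148 and 144 CPM in DE (2.46 ± 0.05, adjusted p = 2.60e-11). In these 4 genes every DE library lay above every hPSC library.

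The other antagonists of activin and BMP moved less. NOG, which traps BMPs, rose from 0.280 and 0.197 CPM to 4.54 and 4.19 CPM (4.24 ± 0.21, adjusted p = 2.08e-08). FST, which binds activin, rose from 12.4 and 9.89 CPM to 56.0 and 51.4 CPM (2.32 ± 0.11, adjusted p = 5.99e-07). Its relative FSTL3 rose by 0.62 ± 0.10 on the log2 scale. GREM1, another BMP antagonist, was called higher at 0.86 ± 0.31 (adjusted p = 0.0302), but leaving out hPSC replicate 1, hPSC replicate 2 or DE replicate 1 ended that call (adjusted p = 0.0573 to 0.278). CHRD, a BMP antagonist of the dorsal organiser, did not pass (0.08 ± 0.25, adjusted p = 0.772).

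BMP ligands rose alongside. BMP2 stood at 5.37 and 7.14 CPM in hPSC and at 203 and 183 CPM in DE (5.0 ± 0.13, adjusted p = 2.95e-07). BMP4 went from 2.81 and 3.19 CPM to 24.0 and 25.4 CPM (3.09 ± 0.09, adjusted p = 4.75e-10). TGFB1 rose by 2.34 ± 0.07 and TGFB3 by 1.62 ± 0.22 on the log2 scale, BMP7 by 0.65 ± 0.07 and GDF1 by 0.67 ± 0.13. BMP5 was called higher (1.54 ± 0.41, adjusted p = 0.0124) but not without DE replicate 1 (adjusted p = 0.0642). The exceptions were INHBA, the activin A subunit, with 179 counts in the hPSC libraries and 1 in those of DE, a 197-fold lower level (95% counting interval 34.9 to 7814, adjusted p = 1.65e-06), and GDF3, a nodal-related ligand of pluripotent cells, which fell by 1.33 ± 0.16 on the log2 scale. GDF1 overlaps CERS1 over its whole length, so its counts are uncertain. TGFB2 and INHBE did not pass (TGFB2 0.33 ± 0.28, adjusted p = 0.303).

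Among the transducers, the BMP branch held the largest rises. SMAD6, an inhibitory SMAD, went from 8.50 and 7.85 CPM in hPSC to 106 and 111 CPM in DE (3.79 ± 0.07, adjusted p = 1.20e-11). SMAD9, a BMP-responsive SMAD, went from 3.68 and 2.70 CPM to 27.1 and 22 CPM (3.0 ± 0.17, adjusted p = 5.04e-06). BMPR2, the type II BMP receptor, went from 35.7 and 34.1 CPM to 149 and 149 CPM (2.15 ± 0.05, adjusted p = 7.66e-11). For these 3 genes the groups did not overlap. SMAD5 rose by 1.04 ± 0.05 and SMAD2 by 0.93 ± 0.04, ACVR1B, the type I receptor of nodal and activin, rose by 1.51 ± 0.06, and FOXH1, the DNA-binding partner of SMAD2, rose by 0.70 ± 0.05. BMPR1A, the BMP type I receptor, fell by 0.79 ± 0.05 and ACVR1C, a type I receptor for nodal, by 0.99 ± 0.24. Smaller rises were those of ACVR2A (0.97), BAMBI (0.88), ACVR1 (0.71), TGFBR1 (0.38), SMAD1 (0.31) and SMAD4 (0.24), and smaller falls those of TGFBR2 (-0.45) and SKIL (-0.33). SMAD3 was called at -0.17 ± 0.06 (adjusted p = 0.0266), but not without hPSC replicate 1 or either DE library (0.103 to 0.168). ACVR2B (0.11 ± 0.05, adjusted p = 0.0845), TGFBR3 (4.77 and 5.05 against 4.72 and 4.55 CPM) and BMPR1B (1.75 and 1.31 against 1.86 and 1.54 CPM) did not pass, and INHBB was too low to be tested.

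The BMP target genes did not move as 1 group. ID1 stood at 133 and 129 CPM in hPSC and 132 and 115 CPM in DE, and ID3 at 131 and 108 against 102 and 94.7 CPM. Neither passed: the difference was -0.03 ± 0.06 for ID1 (adjusted p = 0.648) and -0.23 ± 0.10 for ID3 (adjusted p = 0.0948). ID2 rose by 1.03 ± 0.26 (adjusted p = 0.039). SMAD7, the inhibitory SMAD of the TGF-beta branch, differed by -0.19 ± 0.06 (adjusted p = 0.0104), a call that ended without hPSC replicate 1 or DE replicate 1 (adjusted p = 0.0807 to 0.100).

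**Figure D2:**
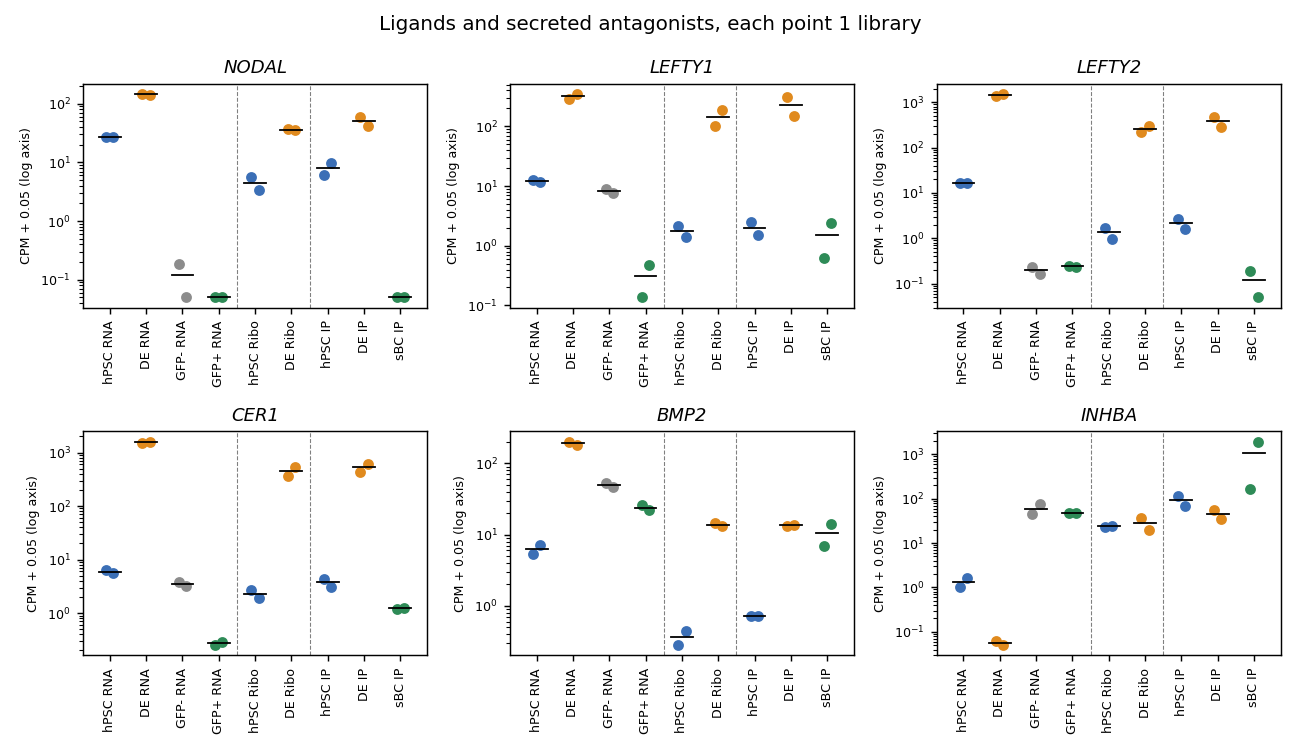
Level of 6 ligands and antagonists in each library (points; bars are means of 2 libraries), as CPM + 0.05 on a log axis, with dashed lines between total RNA, Ribo and IP-Ribo. CER1, LEFTY1, LEFTY2, NODAL and BMP2 are high in DE in all 3 assays, while INHBA has 1 RNA count in DE and 34.7 to 55.1 CPM in the DE IP-Ribo libraries.

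Genes of the pathway outside the 46 members were counted from lists chosen by function, with earlier results of these data known. Of 8 target genes of nodal and activin tested, 7 rose and 1 fell in DE RNA: GSC by 9.02 ± 0.13, EOMES by 7.40 ± 0.08 and HHEX by 6.70 ± 0.08 on the log2 scale, all 3 being transcription factors of the anterior endoderm or mesendoderm. Of 10 further BMP targets, 9 rose, led by TBX3 (5.97 ± 0.18), GATA3 (5.58 ± 0.14) and HAND1 (4.58 ± 0.32). Among 13 further extracellular regulators, 10 rose and 2 fell. NBL1, a BMP antagonist, rose by 3.68 ± 0.07, and CHRDL1, another, fell by 3.26 ± 0.16. Of 8 further receptors and co-receptors 5 rose and 1 fell, of 11 further ligands 4 rose and 3 fell, of 12 further intracellular regulators 5 rose and 5 fell, and of 4 TGF-beta targets 2 rose and 1 fell. Over all genes in this comparison, 38.7% rose and 36.8% fell. The shares that rose among the further ligands (36.4%) and intracellular regulators (41.7%) were near that of all genes. AMHR2 (5.44 ± 0.19) and ACVRL1 (3.97 ± 0.43), a type II and a type I receptor, were the largest rises among the receptors.

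CER1, LEFTY2, LEFTY1 and BMP2 also led the rises in footprints. In total footprints, 36 members were tested and 16 rose in DE, or 44.4%, where 17.2% of all genes rose, and 2 fell, or 5.56%, where 16.9% of all genes fell. The 2 that fell included GREM1, which was called higher in RNA. Its total footprints stood at 3.01 and 3.73 CPM in hPSC and at 0.82 and 0.789 CPM in DE. That lower call ended without either hPSC Ribo library. In IP-Ribo, 40 were tested and 12 rose, or 30.0%, where 9.78% of all genes rose. With edgeR no member fell in IP-Ribo, where 12.5% of all genes fell; 3 were lower at an unadjusted p under 0.05, and DESeq2 called 0. The members' median log2 fold change was 0.82 in Ribo and 0.67 in IP-Ribo, against 0.03 and -0.07 over all genes tested.

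CER1 footprints stood at 2.63 and 1.83 CPM in hPSC Ribo and at 363 and 526 CPM in DE Ribo, and at 4.35 and 3.04 against 441 and 620 CPM in IP-Ribo. The log2 fold changes were 7.64 ± 0.36 (adjusted p = 0.00076) and 7.17 ± 0.34 (adjusted p = 0.000147). LEFTY2 stood at 1.68 and 0.931 CPM in hPSC Ribo against 217 and 300 CPM in DE Ribo (7.63 ± 0.42), and at 2.66 and 1.54 against 467 and 288 CPM in IP-Ribo (7.49 ± 0.48). LEFTY1 stood at 2.13 and 1.36 against 103 and 187 CPM in Ribo (6.38 ± 0.47), and at 2.43 and 1.49 against 305 and 149 CPM in IP-Ribo (6.85 ± 0.67). For these 3 antagonists the DE libraries lay far above those of hPSC in both kinds of footprint. Footprints of BMP2 went from 0.229 and 0.399 CPM to 14.3 and 13.1 CPM in Ribo (5.41 ± 0.32, adjusted p = 0.000958) and from 0.678 and 0.675 CPM to 13.1 and 13.8 CPM in IP-Ribo (4.30 ± 0.44, adjusted p = 0.00137). NODAL rose by 3.02 ± 0.28 in Ribo and by 2.64 ± 0.35 in IP-Ribo. Every DE library lay above every hPSC library in each of these cases.

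SMAD6 and SMAD9 of the BMP branch behaved likewise, but SMAD1 and SMAD5 did not. SMAD1 stood at 11.2 and 12.3 CPM in hPSC Ribo against 13.4 and 14.1 CPM in DE Ribo. In IP-Ribo it stood at 17.1 and 15.5 against 14.4 and 16.8 CPM, and it passed in neither. SMAD5 passed in Ribo, a call that ended without either hPSC Ribo library, and did not pass in IP-Ribo. SMAD6 footprints stood at 1.07 and 0.865 CPM in hPSC against 10.5 and 12.5 CPM in DE in Ribo (3.57 ± 0.25), and at 0.509 and 0.771 against 9.42 and 6.90 CPM in IP-Ribo (3.64 ± 0.64). SMAD9 stood at 0.152 and 0.266 against 3.03 and 2.19 CPM in Ribo (3.59 ± 0.49), and at 0.452 and 0.193 against 4.47 and 4.09 CPM in IP-Ribo (3.71 ± 0.69). BMP4 (2.77 ± 0.28, 2.85 ± 0.41) and BMPR2 (2.53 ± 0.26, 2.88 ± 0.42) also passed in both kinds of footprint.

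Calls in total footprints were lost over the whole table when an hPSC Ribo library was left out. Without hPSC Ribo replicate 1, 4 members passed (CER1, LEFTY2, BMP2 and NODAL), where 1.18% of all genes did, and without replicate 2 LEFTY2 and BMP2 did, where 0.435% of all genes did, with CER1 at an adjusted p of 0.05 and NODAL at 0.0554. In IP-Ribo, 7 members still passed without hPSC replicate 2 (CER1, LEFTY1, LEFTY2, BMP2, BMP4, NODAL and BMPR2). SMAD9 then stood at an adjusted p of 0.0797, and SMAD6 at 0.0504 to 0.0761 without either hPSC library or DE replicate 1. Among nuclear protein-coding genes alone, 19 members passed in IP-Ribo, where 31.2% of those genes did.

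**Figure D3:**
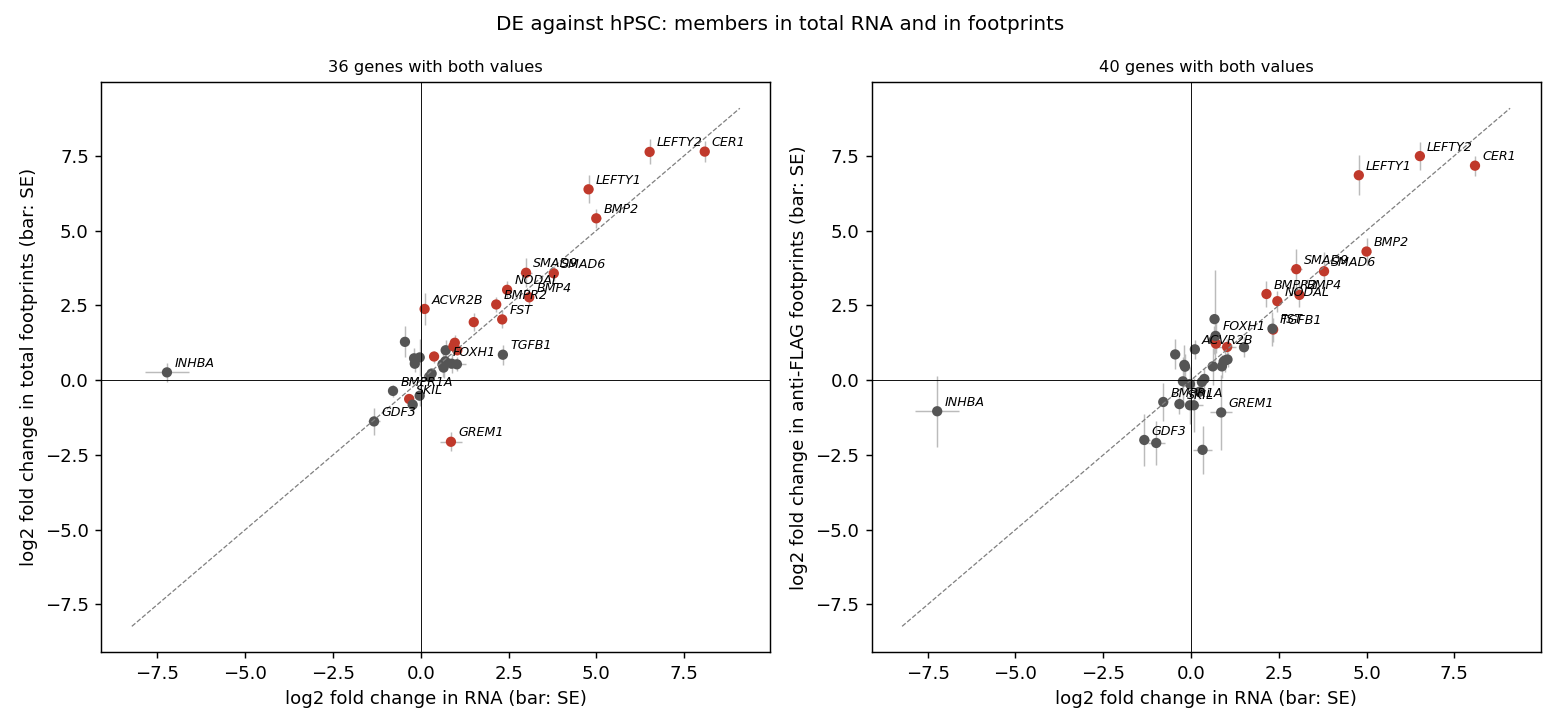
Log2 fold change of DE against hPSC in total RNA (x axis) against that in total footprints (left) or anti-FLAG footprints (right), with 1 point per gene, bars for the SE, red for genes that passed in the footprints and a dashed line of equal change. CER1, LEFTY2, LEFTY1 and BMP2 lie far up the dashed line in both panels, and INHBA lies far to the left of it.

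Translational efficiency (TE) here means footprints relative to RNA, tested as an interaction of assay and stage. From hPSC to DE few of these genes were called. With IP-Ribo, edgeR called none of 46 members, where 0.0991% of all genes were called higher and 0.0675% lower; at an unadjusted p under 0.05, 11 members were higher and 1 was lower, and DESeq2 called 3, all higher (ACVR2B, INHBA and TGFBR2). With Ribo, 1 of 45 was called, INHBA, where 0.24% of all genes were called higher. None was lower, where 0.0738% of all genes were; 2 were lower at an unadjusted p under 0.05, and DESeq2 called 6 higher and 2 lower. The median change in TE was 0.09 over the members with IP-Ribo and 0.13 with Ribo, beside 0.16 and 0.14 over all genes.

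INHBA footprints did not follow its RNA. In RNA it stood at 0.971 and 1.59 CPM in hPSC and at 0.0131 and 0 CPM in DE. In total footprints it stood at 22.8 and 24.8 CPM in hPSC and at 37.6 and 19.6 CPM in DE, overlapping groups that differed by 0.26 ± 0.33 on the log2 scale (adjusted p = 0.582). In IP-Ribo it stood at 117 and 67.2 against 55.1 and 34.7 CPM (-1.04 ± 1.18, adjusted p = 0.584). The 2 sBC IP-Ribo libraries, at 162 and 1936 CPM, lay 12-fold apart, whereas the GFP+ RNA libraries were close to each other, at 47.7 and 48.5 CPM. An antisense gene, INHBA-AS1, overlaps INHBA, and where in the gene the footprints lie was not analysed here.

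Between GFP+ and GFP- sBC, 3 of 42 members tested passed. ACVR1C was higher in GFP+ cells (2.38% of members, where 0.0808% of all genes were higher), and LEFTY1 and CER1 were lower (4.76%, where 2.35% of all genes were lower). ACVR1C stood at 506 and 308 CPM in GFP+ and at 68.2 and 94.2 CPM in GFP- sBC (2.32 ± 0.39, adjusted p = 0.0265), and did not pass without GFP+ replicate 1 (adjusted p = 0.167). LEFTY1 stood at 0.086 and 0.426 CPM in GFP+ and 8.88 and 7.58 CPM in GFP- sBC (-4.98 ± 0.75, adjusted p = 0.0184). CER1 stood at 0.201 and 0.240 against 3.71 and 3.11 CPM (-3.94 ± 0.59, adjusted p = 0.0184), and at an adjusted p of 0.0623 or 0.0570 without GFP+ replicate 1 or 2. In bulk RNA, fewer cells of a type and less RNA per cell cannot be told apart. Markers of duct and progenitor cells, 4 of 5 of them at 1 CPM or more and PTF1A at 0.414 to 0.529 CPM, summed to 1322 to 1411 CPM in GFP- and 183 to 299 CPM in GFP+ sBC, and those of cycling cells (4 of 4) to 52.0 to 133 against 5.54 to 8.63 CPM. Their part in these differences was not tested.

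Several BMP readouts lay far apart in the 2 GFP- libraries. ID1 stood at 145 CPM in GFP- replicate 1 and 9.96 CPM in replicate 2, beside 14.9 and 4.50 CPM in GFP+ sBC, so that the groups overlapped. ID3 stood at 136 and 15.4 CPM in GFP- and 8.60 and 1.97 CPM in GFP+ sBC. SMAD6 stood at 8.31 and 1.88 against 0.459 and 0.160 CPM, and NOG at 8.59 and 0.382 against 0.0860 and 0.0799 CPM. In all 4 genes GFP- replicate 1 was the highest of the 4 libraries. Within each replicate number, the GFP- library also lay above the GFP+ library in all 4 genes. The labels do not say whether equal numbers share a sort. The differences did not pass: -3.0 ± 1.20 for ID1 (adjusted p = 0.388), -3.84 ± 1.11 for ID3 (0.172), -4.04 ± 0.89 for SMAD6 (0.0646) and -5.71 ± 1.42 for NOG (0.0943). BMP7, a ligand of the same branch, stood at 6.08 and 8.77 CPM in GFP+ and 52.6 and 20.7 CPM in GFP- sBC (-2.31 ± 0.51, adjusted p = 0.0671). With libraries taken as unpaired, the size of these differences rests on GFP- replicate 1. Without it they were -0.08 for ID1, -1.58 for ID3, -2.63 for SMAD6 and -2.19 for NOG. Values of a fit blocked by replicate number are given at the end.

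Calls among these genes moved with the other libraries. Without GFP- replicate 2, which leaves 1 GFP- library and takes the spread from the GFP+ pair alone, 36.6% of all genes and 26 members passed, among them SMAD6 (-4.74) and NOG (-6.63) but not ID1 (adjusted p = 0.0895) or ID3 (0.101). Without GFP+ replicate 1, ID1 (0.00405), ID3 (0.000199), SMAD6 (0.00745) and NOG (0.00321) passed. Without GFP+ replicate 2, ID3 (0.0443) and NOG (0.00555) passed, and ID1 (0.218) and SMAD6 (0.0976) did not.

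GFP- replicate 1 also had a higher sum of 6 mesenchyme markers (67.6 CPM, beside 10.7 CPM in replicate 2 and 4.10 to 4.90 CPM in GFP+ sBC). That sum was mostly the collagens COL1A1 (41.8 beside 6.14 CPM) and COL3A1 (21.6 beside 0.676 CPM), whereas PDGFRA was lower in replicate 1 (1.68 beside 2.35 CPM), PDGFRB stood at 1.86 beside 1.17 CPM, and DCN and LUM were under 1 CPM in both. The library also held more RNA of cycling cells (133 beside 52.0 CPM). The part of these cells in the ID gene levels was not tested. DESeq2 called 7 members in the sort, which added FSTL3, BMP7, SMAD6 and NOG, all lower in GFP+ cells. Of the further pathway genes, LTBP1 (-3.71 ± 0.41), FSTL1 (-2.48 ± 0.38), TGIF1 (-3.44 ± 0.53), BMP6 (-3.46 ± 0.69) and CCN2 (-4.23 ± 0.78) were lower in GFP+ sBC. They were 2 of 13 extracellular regulators, 1 of 12 intracellular regulators, 1 of 11 ligands and 1 of 4 TGF-beta targets, where 2.35% of all genes were lower. FSTL1 did not pass without either GFP+ library (adjusted p = 0.129 to 0.199), nor BMP6 without any 1 of 3 libraries, GFP+ replicates 1 and 2 and GFP- replicate 1 (0.0556 to 0.279).

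**Figure D4:**
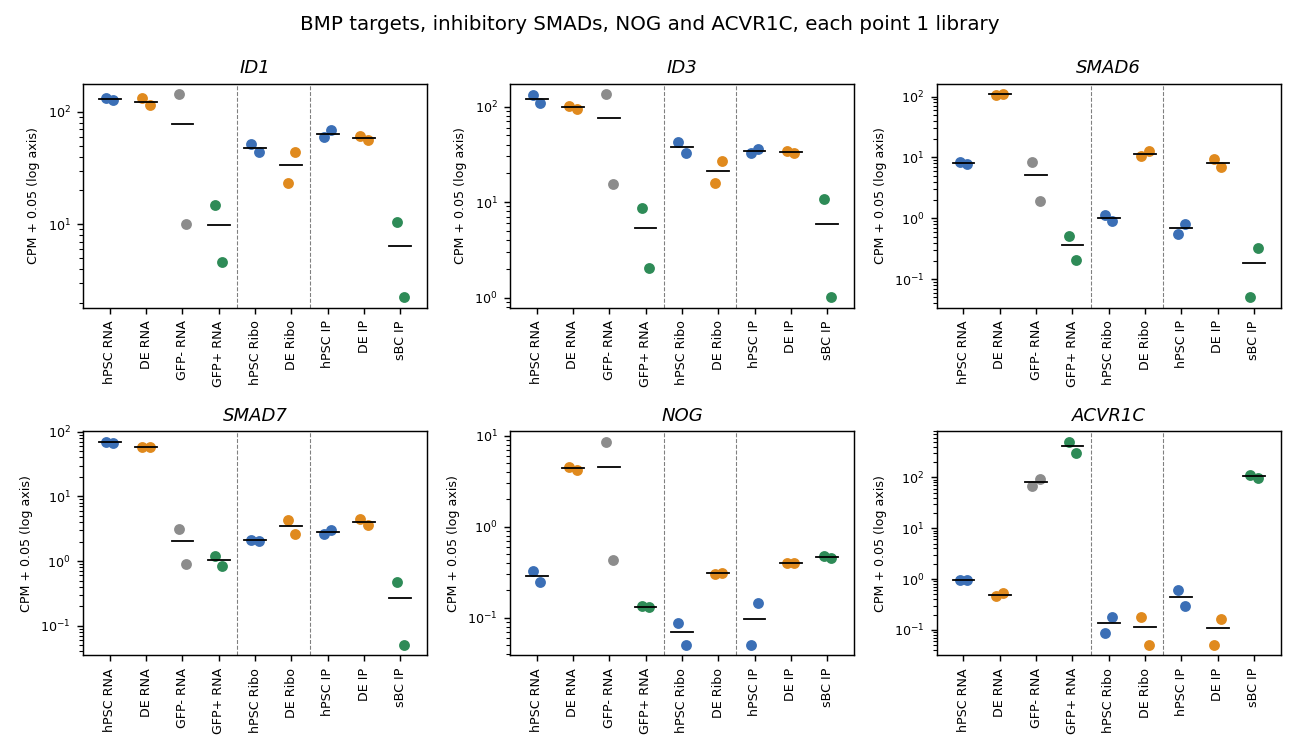
Level of ID1, ID3, SMAD6, SMAD7, NOG and ACVR1C in each library (points; bars are means of 2 libraries), as CPM + 0.05 on a log axis, with dashed lines between total RNA, Ribo and IP-Ribo. The GFP- sBC libraries lie 14.5-fold apart for ID1 and 8.82-fold for ID3, and ACVR1C is at 68.2 CPM or more in every sBC library.

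Compared with hPSC, GFP+ sBC held less RNA of NODAL, its antagonists LEFTY1, LEFTY2 and CER1, the nuclear partner FOXH1, and ID1 and ID3, and more of several type I receptors and activin subunits. Of 46 members tested, 15 rose, or 32.6%, where 30.4% of all genes rose, and 20 fell, or 43.5%, where 30.9% of all genes fell. Compared with DE, 10 rose (21.7%, where 29.9% of all genes rose) and 29 fell (63.0%, where 30.9% of all genes fell). The share that rose against hPSC was near that of all genes. By role against DE, 10 of 10 SMADs and partners, 6 of 8 antagonists, 7 of 13 ligands, 4 of 12 receptors and 2 of 3 ID genes fell. Not all of these calls were stable. Those of SMAD4, SMAD5, ID1 and BAMBI ended without any 1 of the 4 libraries of DE and GFP+ sBC. The call of SMAD9 ended without DE replicate 1 or GFP+ replicate 2, and that of ID3 without GFP+ replicate 2. Those of BMP4, INHBE, NOG and BMPR1B also ended without some of these libraries. The median log2 fold change was -1.24 over the members and 0.00 over all genes against DE, and -0.21 and 0.04 against hPSC.

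NODAL was not detected in GFP+ sBC, with 0 counts in both libraries, against 27.4 and 27.3 CPM in hPSC and 148 and 144 CPM in DE. With the floor set at 3 counts for the group, it was at least 660-fold lower than in hPSC and at least 3513-fold lower than in DE. GDF3, at 2.87 and 3.26 CPM in hPSC, also had 0 counts, at least 74.1-fold lower. Transcripts of the antagonists were close to absent: LEFTY2 stood at 0.201 and 0.187 CPM and CER1 at 0.201 and 0.240 CPM in GFP+ sBC. The log2 fold changes against hPSC and DE were -5.53 ± 0.48 and -10.26 ± 0.54 for LEFTY1, -6.38 ± 0.25 and -12.84 ± 0.30 for LEFTY2, -4.72 ± 0.24 and -12.76 ± 0.29 for CER1, and -3.73 ± 0.54 and -6.0 ± 0.58 for FST. FOXH1, at 60.2 and 64.4 CPM in hPSC, stood at 0.229 and 0.213 CPM in GFP+ sBC (-8.12 ± 0.34, adjusted p = 6.25e-06). FOXH1 overlaps KIFC2, and reads of the 2 genes may be hard to separate. The co-receptor of nodal, TDGF1, stood at 260 and 282 CPM in hPSC and at 0.0573 and 0.133 CPM in GFP+ sBC (-11.42 ± 0.38, adjusted p = 5.50e-06), whereas its relative CFC1 stood at 0.397 and 0.436 against 57 and 88.3 CPM (7.44 ± 0.38, adjusted p = 9.46e-06).

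The inhibitory and co-repressing regulators fell with them. SMAD7 went from 70.4 and 66.1 CPM in hPSC to 1.15 and 0.799 CPM in GFP+ sBC (-6.13 ± 0.59, adjusted p = 0.000105). SMAD6 went from 8.50 and 7.85 CPM to 0.459 and 0.160 CPM (-4.73 ± 0.77, adjusted p = 0.00139). SKIL, a SMAD co-repressor, went from 636 and 611 CPM to 44.6 and 46.7 CPM (-3.77 ± 0.49, adjusted p = 0.000451). PMEPA1 (-5.15 ± 0.27), TGIF1 (-6.56 ± 0.43) and TGIF2 (-3.08 ± 0.22), which restrain SMAD signalling, were among 8 of 12 further intracellular regulators that fell, while 1 rose. Over all genes, 30.9% fell and 30.4% rose. The receptor SMADs changed less: SMAD1 fell by 1.13 ± 0.18, SMAD3 by 1.13 ± 0.18 and SMAD2 by 1.06 ± 0.22, the last not without GFP+ replicate 2 (adjusted p = 0.0619). SMAD4, the common partner, was called at -0.95 ± 0.31 (adjusted p = 0.029), a call that ended without any 1 of the 4 libraries of hPSC and GFP+ sBC (0.0887 to 0.192). SMAD9 rose by 1.64 ± 0.36 (adjusted p = 0.00577), but not without hPSC replicate 2 (0.0539).

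ID1 stood at 14.9 and 4.50 CPM in GFP+ sBC against 133 and 129 CPM in hPSC (-3.75 ± 1.12, adjusted p = 0.021), and leaving out any 1 of these 4 libraries ended the call (0.0513 to 0.137). ID3 stood at 8.60 and 1.97 CPM against 131 and 108 CPM (-4.50 ± 1.07, adjusted p = 0.00801), and did not pass without GFP+ replicate 2 (0.0606). Both genes were lower in each GFP+ library than in each hPSC and DE library. The wider target lists were mixed against hPSC. Of 8 nodal and activin targets 4 rose and 4 fell, and of 10 further BMP targets 3 rose and 3 fell. Of 4 TGF-beta targets 0 rose and 2 fell, and of 7 further receptors and co-receptors 3 rose and 3 fell. Over all genes, 30.4% rose and 30.9% fell, near the shares of the BMP targets (30% each way).

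Of 13 ligands, 6 rose and 4 fell against hPSC. Ligands that rose were activin subunits, TGF-betas and BMPs, and the receptors that rose furthest were those of the activin and TGF-beta branch. Besides NODAL and GDF3, BMP7 fell from 20.9 and 19.9 CPM in hPSC to 6.08 and 8.77 CPM in GFP+ sBC. That call ended without any 1 of these 4 libraries. INHBE fell too, from 1.71 and 2.1 CPM to 0.201 and 0.453 CPM. INHBA stood at 47.7 and 48.5 CPM in GFP+ sBC, with a log2 fold change of 5.23 ± 0.41 against hPSC (adjusted p = 4.10e-05). INHBB, the activin B subunit, rose by 3.27 ± 0.69, TGFB2 by 3.76 ± 0.51, TGFB3 by 2.45 ± 0.40, BMP2 by 1.93 ± 0.22 and BMP4 by 1.98 ± 0.28. Among the antagonists GREM1 rose by 4.82 ± 0.49 and CHRD by 2.49 ± 0.50. ACVR1C went from 0.912 and 0.900 CPM in hPSC to 506 and 308 CPM (8.81 ± 0.39, adjusted p = 6.75e-06), and its level in DE was 0.405 and 0.471 CPM. TGFBR3, the betaglycan co-receptor, went from 4.77 and 5.05 to 46.4 and 47.4 CPM (3.26 ± 0.26, adjusted p = 4.36e-05), and ACVR1B from 16.8 and 16.4 to 89.3 and 111 CPM (2.59 ± 0.22, adjusted p = 5.50e-05). ACVR2B, the type II receptor, fell by 1.12 ± 0.17. Among 11 further ligands 7 rose, with GDF15 at 61.4 and 81.8 CPM against 0.971 and 0.816 CPM (6.32 ± 0.47), and among 14 further extracellular regulators 5 rose and 5 fell, with LTBP2, a latent TGF-beta binding protein, at 7.28 ± 0.39. The shares of these regulators (35.7% in each direction) were near those of all genes, of which 30.4% rose and 30.9% fell.

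In IP-Ribo of sBC against hPSC, 15 of 40 members tested rose (37.5%, where 30.4% of all genes rose) and 10 fell (25%, where 28.5% of all genes fell). Against DE, 12 rose (30.0%, where 27.8% of all genes rose) and 12 fell (30.0%, where 24.8% of all genes fell). These shares were near those of all genes, and the members differed by role: 9 of 11 receptors rose against hPSC and 8 of 11 against DE, while 5 and 6 of 10 SMADs and partners fell. NODAL and FOXH1 had 0 footprints in both sBC libraries. NODAL stood at 6.10 and 9.93 CPM in hPSC and 59 and 41.1 CPM in DE, at least 38.9-fold and at least 217-fold above sBC, and FOXH1 at 6.55 and 13.1 CPM and at 33.8 and 21.3 CPM, at least 48.0-fold and at least 116-fold above. SMAD7 had 3 footprints, 13.4-fold lower (95% counting interval 4.46 to 65.9), and LEFTY2 had 1, 29.4-fold lower (5.12 to 1175). SKIL fell by 3.92 ± 0.36, and ID1, at 10.4 and 2.17 CPM against 59.2 and 68.3 CPM, fell by 3.35 ± 0.64 (adjusted p = 0.00572). CER1, at 1.15 and 1.22 CPM in sBC, fell by 1.63 ± 0.35 against hPSC and by 8.79 ± 0.39 against DE. LEFTY1, at 0.577 and 2.31 CPM in sBC, fell by 7.27 ± 0.71 against DE. It overlapped hPSC (2.43 and 1.49 CPM) and was not called in that comparison, where 2 of 7 antagonists tested fell. Of 9 ligands tested against hPSC, 4 rose and 2 fell. Among those that rose, TGFB2 stood at 0.396 and 0.241 CPM in hPSC and at 8.94 and 9.78 CPM in sBC (4.85 ± 0.60, adjusted p = 0.000382).

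Receptors held most of the rises in sBC footprints. ACVR1C stood at 0.565 and 0.241 CPM in hPSC and at 113 and 98.1 CPM in sBC (8.03 ± 0.48, adjusted p = 2.32e-05). TGFBR3 stood at 0.565 and 0.241 CPM against 30.7 and 25.3 CPM (6.11 ± 0.50, adjusted p = 6.23e-05). ACVR1B went from 1.92 and 1.20 CPM to 33.9 and 46.5 CPM (4.68 ± 0.36, adjusted p = 5.11e-05), TGFBR2, the type II TGF-beta receptor, from 0.452 and 0.578 to 6.92 and 7.47 CPM (3.78 ± 0.51), and BMPR2 from 0.848 and 0.578 to 7.21 and 8.83 CPM (3.48 ± 0.43). In these 5 genes both sBC libraries lay above both hPSC libraries. ACVR1 (3.44 ± 0.33) and ACVR2A (3.18 ± 0.40), a BMP type I and an activin type II receptor, and TGFBR1 (1.79 ± 0.37) rose too. BAMBI, a decoy receptor, was called higher (1.67 ± 0.38) but not without hPSC replicate 1 (adjusted p = 0.0611).

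**Figure D5:**
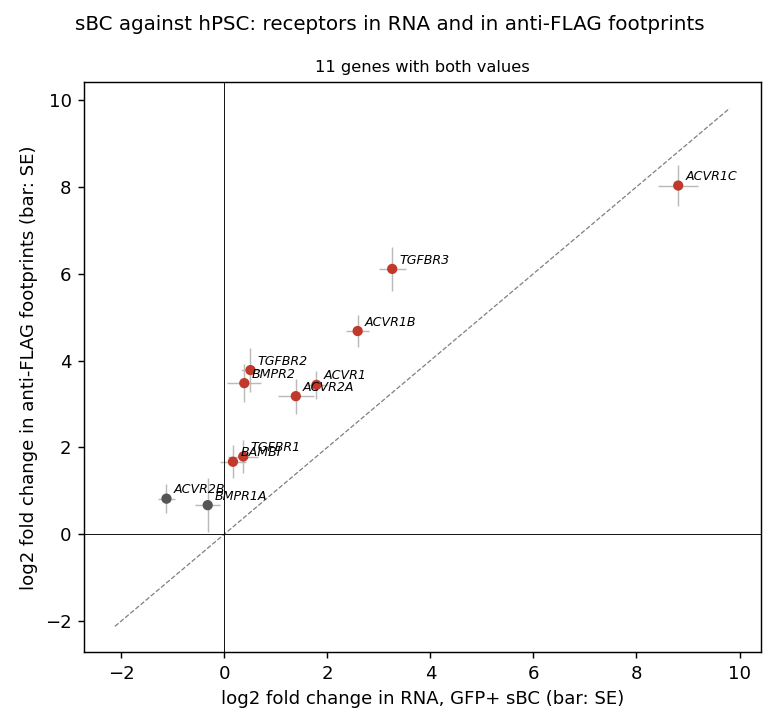
Log2 fold change of sBC against hPSC in GFP+ RNA (x axis) against that in anti-FLAG footprints (y axis) for the 11 receptors and decoys tested in both, with bars for the SE, red for genes that passed in the footprints and a dashed line of equal change. All but ACVR1C lie above the line, with TGFBR2, BMPR2, TGFBR3 and ACVR1B farthest from it.

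The difference between the assays was tested as a change in TE. Against hPSC, 13 of 46 members were called higher, or 28.3%, where 11% of all genes were. With edgeR no member was lower, where 3.98% of all genes were, and both the count at an unadjusted p under 0.05 and that of DESeq2 were 0. Against DE, 12 were higher (26.1%, where 8.84% of all genes were) and none lower (5.32% of all genes), with 1 lower at an unadjusted p under 0.05 and 1 by DESeq2. The members' median change was 1.26 against hPSC and 1.06 against DE, beside 0.07 and -0.09 over all genes. All members are nuclear protein-coding genes, and the shares of such genes called higher were larger than those of all genes. Among nuclear protein-coding genes alone, 2708 of 15650 were higher and 801 lower against hPSC, with a median change of 0.19. Against DE, 2813 of 15650 were higher and 653 lower, with a median of 0.25. Receptors made up 8 of the 13: TGFBR2 (3.04 ± 0.40, adjusted p = 0.000768), BMPR2 (2.87 ± 0.33, 0.000395), TGFBR3 (2.64 ± 0.41, 0.00183), ACVR1B (1.86 ± 0.34, 0.00438), ACVR2B (1.70 ± 0.25, 0.0014), ACVR2A (1.56 ± 0.36, 0.0156), ACVR1 (1.41 ± 0.27, 0.00612) and TGFBR1 (1.17 ± 0.32, 0.0341). The 10 SMADs and partners had a median of 0.25 against hPSC, and edgeR called none of them (at an unadjusted p under 0.05, 0 were higher and 0 lower, and DESeq2 called 0).

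Of the 8 receptors, TGFBR2, BMPR2, TGFBR3 and ACVR2B passed when each library was left out in turn. ACVR1 (adjusted p = 0.0597) and ACVR1B (0.0540) did not pass without hPSC IP-Ribo replicate 2, ACVR2A did not in 6 of 8 cases (0.0537 to 0.120), and TGFBR1 did not in 8 of 8 (0.0603 to 0.253). Against DE, 7 of 12 receptors were higher in TE, and TGFBR3 (3.17 ± 0.47, adjusted p = 0.0018), ACVR1B (1.90 ± 0.32, 0.0037) and BMPR2 (1.74 ± 0.29, 0.00302) passed without each library in turn, whereas ACVR2A, BAMBI, TGFBR1 and TGFBR2 failed in 4 to 6 of 8 cases (0.0555 to 0.217). The others higher in TE against DE were CER1 (3.42 ± 0.47, adjusted p = 0.00119), NOG (5.38 ± 0.99), BMP2 (2.12 ± 0.39, 0.00543), TGFB1 (1.63 ± 0.32) and TGFB2 (3.30 ± 0.84, 0.0258), the last failing in 5 of 8 cases (0.0513 to 0.0900). NOG rests on few counts, with 3 in each GFP+ RNA library and 3 in each sBC footprint library. CER1 does too on the sBC side, with 7 and 9 counts in the GFP+ RNA libraries and 8 and 9 in the sBC footprint libraries. Against a log2 fold change of 1, 6 members passed in the comparison with hPSC and 5 in that with DE.

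In the comparison with hPSC, the other 5 members higher in TE were antagonists and ligands: CER1 (2.84 ± 0.48, adjusted p = 0.00287), LEFTY1 (4.87 ± 1.04, 0.0134), NOG (4.23 ± 1.13), TGFB1 (1.29 ± 0.33) and BMP2 (1.78 ± 0.46). Like CER1 and NOG, LEFTY1 rests on few counts in sBC, with 3 and 16 in the GFP+ RNA libraries and 4 and 17 in the sBC footprint libraries. LEFTY1 did not pass without sBC IP-Ribo replicate 2 (0.228), BMP2 in 6 of 8 cases (0.0544 to 0.133), and NOG and TGFB1 failed in 7 of 8 (0.0737 to 0.118 and 0.0613 to 0.178).

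The sBC footprints came from cells given the tag by lentivirus, whereas TE sets them against RNA of GFP+ libraries. Markers of other cells are given for each assay by itself, since levels are not compared between assays. In sBC IP-Ribo, duct and progenitor markers summed to 977 to 1114 CPM, with 4 of 5 at 1 CPM or more and PTF1A at 0, cycling markers (4 of 4) to 34.1 to 84.2 CPM, and mesenchyme markers (3 of 6 at 1 CPM or more) to 9.37 to 18.2 CPM. In hPSC IP-Ribo the same lists summed to 114 to 147, 1419 to 1599 and 9.72 to 12.3 CPM. In RNA they summed to 183 to 299, 5.54 to 8.63 and 4.10 to 4.90 CPM in GFP+ sBC, and to 104 to 108, 995 to 1036 and 37.9 to 38.6 CPM in hPSC. In these lists, too, TE was called higher against hPSC for 3 of 4 cycling, 3 of 4 duct and progenitor and 3 of 4 mesenchyme markers tested, where 11% of all genes were. It was called higher for 1 of 4 endoderm, 0 of 5 beta-cell and 0 of 5 other islet markers, and lower for 1 of 4 pluripotency markers. Median changes were 4.42 for duct and progenitor, 3.48 for mesenchyme, 3.02 for other islet, 2.82 for cycling and 0.86 for beta-cell markers. They were -0.08 for endoderm and -1.29 for pluripotency markers. LEFTY1 and CER1, called higher in TE, were also higher in GFP- than in GFP+ RNA, as was TGFBR2 (41 and 41.7 against 20.3 and 16.9 CPM, -1.16 ± 0.34, adjusted p = 0.156). BMPR2 (23.4 and 51.6 against 47.1 and 44.4 CPM), TGFBR3 (30.7 and 47.1 against 46.4 and 47.4 CPM) and ACVR1B (69.2 and 90.7 against 89.3 and 111 CPM) overlapped between the fractions. ACVR2B, TGFBR1 and TGFB1 overlapped too. BMP2 (52.7 and 46.1 against 25.7 and 22 CPM) and NOG lay higher in GFP- RNA without passing. ACVR1 (14.9 and 19.1 against 30.9 and 29.5 CPM, 0.82, adjusted p = 0.406) and ACVR2A (11.3 and 25.3 against 27.7 and 29.2 CPM, 0.63, adjusted p = 0.652) lay lower in GFP- RNA, also without passing. The part of these cells in the TE values was not tested.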

How the data were processed

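RNA and footprints were measured in 18 libraries. Per the labels' protocols, ribosomal RNA was removed with RNase H, and footprints were cut with RNase I, cycloheximide being left out, with an anti-FLAG pull-down for IP-Ribo. The authors deposited expected counts, that is estimated counts per gene, of which 16.8% to 31.3% per library were not whole numbers. The submitters' processing notes name Salmon, DESeq2, UMI-tools, cutadapt, Bowtie and GRCh38, without versions or roles. Strand use in counting is not given in the sources used here, so antisense and overlapping genes may share reads. Of the identifiers, 57030 (98.7%) matched a table of gene names.

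Counts were rounded and passed to edgeR 4.0.16 under R 4.3.3 (TMM after filterByExpr, robust quasi-likelihood F test, two-sided, Benjamini-Hochberg over all genes, threshold 0.05) in 12 comparisons. Fits held 4 libraries for DE against hPSC in RNA or Ribo and for the GFP sort, 8 RNA libraries for GFP+ sBC against hPSC or DE, 6 for IP-Ribo, 12 for TE with IP-Ribo and 8 with Ribo. The SE is the log2 fold change over the root of F. Intervals and floors (3 counts over a group) cover counting error only. Alternatives were DESeq2 1.42.0, its size factors (RLE), no filter, a filter that asks for both 10 counts and 1 CPM in 2 libraries, a replicate block, glmTreat at a log2 fold change of 1, nuclear protein-coding genes, other fits and each library left out. Chosen after seeing the data were at least 10 counts in every library for TE, and a block with exchanged numbers. The method was tested on simulated data.

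The members and all lists were chosen with earlier results of these data known. In each comparison the called members with the 6 largest changes (mean log2 CPM of at least 0) were to be given by library, others named freely, and up to 3 called genes per pathway list and comparison named. Promoter windows came from RefSeq (GRCh38.p14).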

Additional observations from a re-analysis of the deposited data

Results flagged for a closer look

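INHBA was set apart because its change from hPSC to DE differed between total footprints and RNA by a test of that difference. The change in TE was 7.42 on the log2 scale (edgeR's quasi-likelihood test, adjusted p = 0.0453), with RNA at 0.971 and 1.59 CPM in hPSC against 0.0131 and 0 CPM in DE and footprints at 22.8 and 24.8 against 37.6 and 19.6 CPM. The RNA term rests on 1 count in DE, so the size of the value is loosely set. The value passed with DESeq2 (7.89, adjusted p = 4.34e-05), but not with RLE size factors (0.0577), the replicate block (0.118) or any 1 hPSC or DE RNA library or hPSC Ribo library left out (0.0792 to 0.272).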

How the results depend on the processing

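Over 303 log2 fold changes of named genes and 3639 alternatives, 3178 kept direction and side of the threshold, 373 lost a call, 79 gained one and 9 changed sign. The 9 concern 7 differences that did not pass, whose sign changed with 1 library left out. For DE against hPSC in RNA, ID1 ran from -0.11 to 0.07, CHRD from -0.15 (without hPSC replicate 2; -0.07 without DE replicate 1) to 0.35, BMPR1B from -0.00 to 0.43 and TGFBR3 from -0.07 to 0.00. In the sort, BMPR2 ran from -0.21 (without GFP- replicate 1) to 0.97 and TGFBR3 from -0.04 to 0.62, and in Ribo INHBA from -0.28 (without DE replicate 1) to 0.66. Counts of members called were compared with the values of the report, and the causes of their changes were not tested. For DE against hPSC in RNA, 37 became 16 with glmTreat and 19 in the fit of all 8 RNA libraries, and 35 to 37 without 1 library. In the GFP sort, 3 became 2 with glmTreat, which lost ACVR1C (adjusted p = 0.0875), 7 with no filter, 7 with DESeq2, 9 in the fit of all 8 RNA libraries and 4 to 26 without 1 library. In IP-Ribo of DE against hPSC, 12 became 19 among nuclear protein-coding genes and 7 to 12 without 1 library; in Ribo, 18 became 2 to 21. For TE with IP-Ribo in DE, 0 became 3 with DESeq2 and 0 to 5 without 1 library. For TE with Ribo, 1 became 0 with RLE or glmTreat, 2 with no filter, 8 with DESeq2, 3 among nuclear protein-coding genes and 0 to 11 without 1 library. For TE of sBC, 13 against hPSC became 6 with glmTreat and 8 to 11 without 1 library, and 12 against DE became 21 with DESeq2, 5 with glmTreat and 7 to 12 without 1 library. The other counts without 1 library were 28 to 31 and 31 to 33 for GFP+ sBC RNA against hPSC and DE, and 20 to 26 and 20 to 24 for sBC IP-Ribo.

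Equal replicate numbers were not taken as pairs, since the correlation of replicate differences was between -0.14, for IP-Ribo of hPSC and DE, and 0.1, for the sort. This correlation runs over all genes of a fit, and does not settle whether equal numbers share a sort. With the replicate block 9 members passed in the sort, 8 of them lower, which added ID1 (-2.24, adjusted p = 0.00154), ID3 (-3.49, 4.53e-08), SMAD6 (-3.90, 2.21e-06), NOG (-4.90, 4.09e-06), BMP7 (-2.18, 0.00142) and FSTL3 (-1.64, 0.0423), and 0 for TE with Ribo. In RNA, 38 passed for DE against hPSC, 34 for GFP+ sBC against hPSC and 37 against DE. In footprints, 15 passed for Ribo, 10 for IP-Ribo of DE against hPSC, 24 for sBC against hPSC and 21 against DE. For TE with IP-Ribo, 0 passed in DE, 11 in sBC against hPSC and 9 against DE. With the DE numbers exchanged in the block, 13 passed in IP-Ribo of DE against hPSC, beside 10 as numbered.

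In footprints, 10 of 46 members were too low to be tested in Ribo, with 22.29 to 30.17 M counts a library, and 6 in IP-Ribo, with 6.61 to 23.11 M.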
